A study of Mus musculus with 17 samples.

Results

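The change of gene expression over 3 days of retinoic acid (RA) treatment was compared between wild-type and *Usb1* knockout R1/E mouse embryonic stem cells, a line derived from the inner cell mass of the blastocyst. For each gene, the change from day 0 to day 3 in wild-type cells was subtracted from the same change in knockout cells, and this difference in response is the quantity described throughout. A positive value means that the gene ended higher in knockout cells than the wild-type response would give, because it rose more, fell less or turned from a fall to a rise. The comparison used 11 of the 17 libraries of the study. These were 2 libraries of wild-type cells at day 0, 3 of wild-type cells at day 3, 3 of *Usb1* knockout cells at day 0 and 3 of *Usb1* knockout cells at day 3. The cells at day 0 had received no RA. The knockout libraries came from KO-1, a single line made by CRISPR/Cas9, so a difference between clones cannot be told apart from an effect of the knockout. The study asked with this experiment whether *Usb1*, which trims the 3′ end of U6 snRNA, is needed for pluripotency.

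RA is the ligand of nuclear receptors that bind DNA next to their target genes, and embryonic stem cells exposed to it leave the pluripotent state. The transcription factors that hold that state, among them *Nanog*, *Esrrb*, *Sox2* and *Pou5f1* (which encodes Oct4), are shut down, and genes of RA turnover, *Hox* genes and genes of the extraembryonic endoderm come on. FGF4, made by the stem cells themselves, signals through FGF receptors and the kinase ERK. ERK activity switches on its own brakes, the dual-specificity phosphatases and the Sprouty and Spred proteins, and ETS transcription factors of the *Etv4* and *Etv5* group, so that the transcripts of these genes serve as a readout of the pathway.

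The 11 libraries held 15404379 to 17300186 reads on genes, as recovered from TPM (transcript levels scaled for gene length and depth), the unit of the deposited values. The knockout check came first. *Usb1* had 40.0 and 37.1 TPM in the wild-type libraries at day 0 and 33.7, 32.0 and 35.8 TPM at day 3, against 15.5, 15.2 and 17.9 TPM and 14.7, 17.2 and 20.4 TPM in the knockout libraries, so its mRNA was lower but still present in the knockout libraries, and its response did not pass the test (difference 0.28 ± 0.18 (SE), adjusted p = 0.35). *Eif2s3y*, on the Y chromosome, was listed at 0 in each knockout library and lay between 64.4 and 85.6 TPM in the wild-type libraries of the 2 days. The label of embryonic stem cells was checked at day 0 with 7 markers (*Pou5f1*, *Sox2*, *Nanog*, *Esrrb*, *Zfp42*, *Dppa5a* and *Tdh*), whose summed level was 9029 to 9051 TPM in wild-type and 9005 to 9895 TPM in knockout libraries. Wild-type replicate 1 at day 0 and knockout replicate 1 at day 3 stood apart in having few genes of low read number. There, 239 and 1224 genes had 1 read, against 1352 to 2467 in the other 9 libraries. As wild-type cells at day 0 have only 2 libraries, results were also computed without each of them. Called genes described here that passed only with replicate 1, or that lay under the 2-fold limit without replicate 2, are pointed out.

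Of 11574 protein-coding genes with at least 5 TPM in at least 2 of the 11 libraries, 301 (2.60%) passed the test for a different response. The test was limma on log2(TPM + 1) with Benjamini-Hochberg adjustment over all genes, at an adjusted p under 0.05 and at least a 2-fold difference, which is 1 on the log2 scale. The difference was positive for 166 genes (1.43%) and negative for 135 (1.17%). The difference lay within 0.5 on the log2 scale for 82.0% of the genes tested, its median was 0.06, its median standard error 0.18, and the response had the same sign in both genotypes for 88.1% of genes. A limit of 0.5 is near the size of a typical response. The median absolute response was 0.60 in wild-type and 0.55 in knockout cells. Without the 2-fold limit, 919 genes (7.94%) had an adjusted p under 0.05, of which 545 were positive and 374 negative. The smallest expression at which a gene entered is shown by *Unc93a2*, with a second-highest value of 5.002 TPM, while *Slc25a47*, at 4.996 TPM, stayed out.

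**Figure D1:**
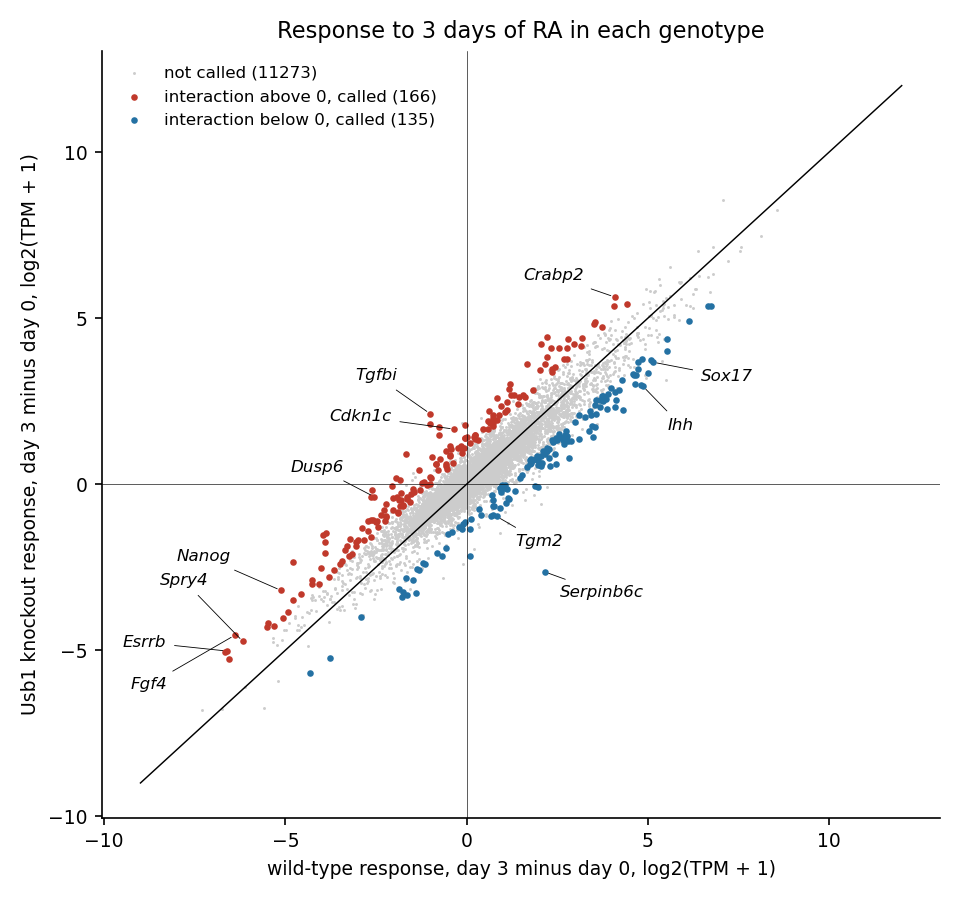
Response to 3 days of RA in wild-type (horizontal axis) and *Usb1* knockout cells (vertical axis), each as day 3 minus day 0 of log2(TPM + 1), with 1 point per gene tested. The 166 genes with a positive and the 135 with a negative difference in response lie on either side of the line of equal response, and most of the 11273 other genes lie near it.

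The 301 genes fell into 6 kinds by the sign of the mean response in each genotype, which lay near 0 for some. Among the 166 positive genes, 73 fell in both genotypes but less in the knockout, 57 rose more in the knockout, and 36 fell in wild-type and rose in knockout cells. Of the 135 negative genes, 85 rose less in the knockout, 27 rose in wild-type and fell in knockout cells, and 23 fell more in the knockout. A difference in response is the genotype difference at day 3 minus that at day 0, and either end can carry it. The larger part was at day 3 for 137 genes and at day 0 for 164. The genotypes did not overlap at day 3 in 136 of the 137, against 29.9% of all genes tested, and at day 0 in 162 of the 164, against 47.5% of all genes tested. These counts follow in part from the call itself. The day 1 libraries took no part in the test and give a separate view. Of the 164 genes with the larger part at day 0, 135 had at day 1 a genotype difference of the same sign as at day 0 (83 of 92 positive and 52 of 72 negative genes), against 67.2% of all genes tested. Among the 137 with the larger part at day 3, the sign at day 1 was that of day 3 in 66, against 57.3% of all genes tested. Knockout cells were higher at day 1 in 31.4% of all genes tested, so most positive genes with the larger part at day 0, which were lower in knockout cells then, shared the more frequent sign.

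**Figure D2:**
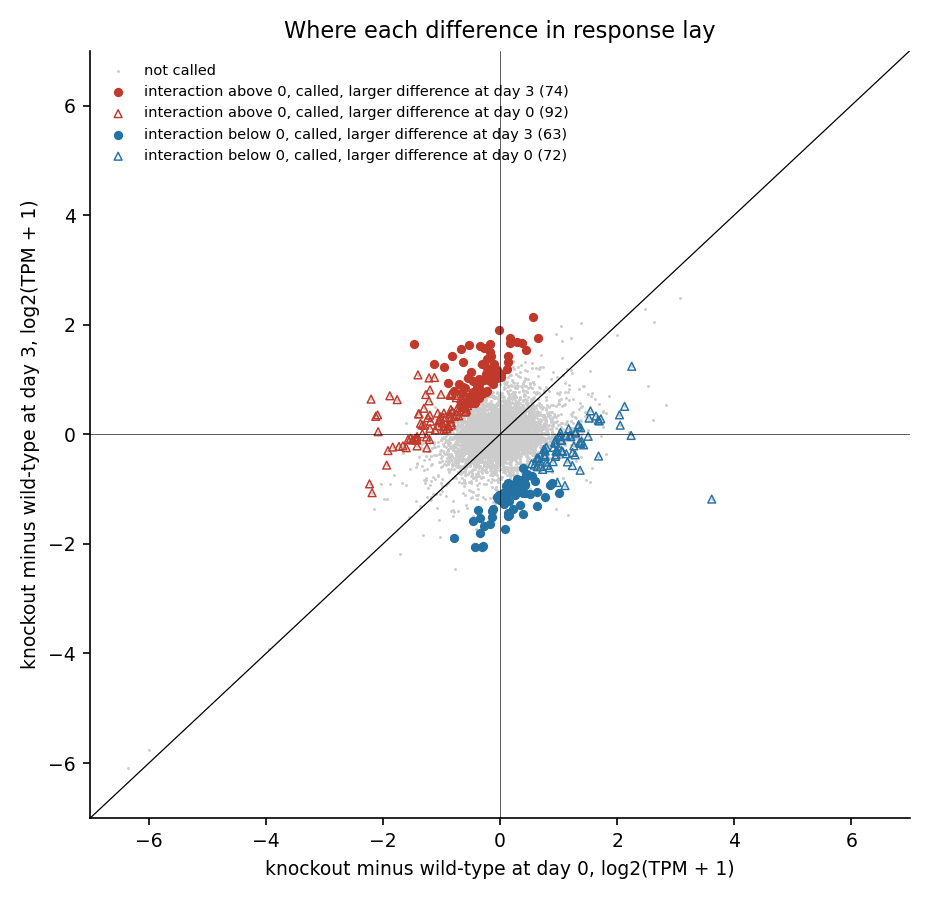
Genotype difference (knockout minus wild-type, log2(TPM + 1)) at day 0 on the horizontal and at day 3 on the vertical axis for each gene tested. Filled circles mark called genes with the larger difference at day 3 (74 positive, 63 negative) and open triangles those with the larger difference at day 0 (92 positive, 72 negative).

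The list with the most members called was that of FGF and ERK feedback genes. Of 20 members tested, 10 passed with a positive difference and 0 with a negative one, beside 1.43% and 1.17% of all genes tested, and the median difference over the 20 was 1.02, beside 0.06 over all genes. The 10 were *Dusp6*, *Fgf4*, *Etv4*, *Spry4*, *Spry2*, *Etv5*, *Spred2*, *Spred1*, *Etv1* and *Spry1*. For each of them, the 3 knockout libraries at day 3 were above the 3 wild-type libraries, and the larger part of the difference was at day 3. The genotypes did not overlap at day 3, in either direction, in 29.9% of all genes tested, and for called genes this follows in part from the call. At day 0 they did not overlap for 9 of the 10, against 47.5% of all genes tested. Over the 20, the median genotype difference was -0.20 at day 0, -0.15 at day 1 and 0.91 at day 3.

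*Fgf4* (chr7:144847367-144865243 in GRCm38), the ligand, had 336 and 310.3 TPM in the wild-type libraries at day 0 and 3.45, 1.98 and 3.27 TPM at day 3. In the knockout libraries it was at 277, 264 and 262 TPM and 11.5, 10.8 and 9.26 TPM. The gene was thus nearly silent in wild-type cells at day 3 and still measurable in knockout cells, with a difference in response of 1.85 ± 0.20 (adjusted p = 0.00022). At day 1 it was still high in both genotypes, at 245, 237 and 234 TPM in wild-type cells against 284, 288 and 258 TPM in knockout cells. The receptors of the list did not pass. *Fgfr1*, the receptor with the largest positive value, had a difference of 0.59, under the 2-fold limit (adjusted p = 0.012).

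*Dusp6* (chr10:99263231-99267489) encodes a phosphatase that inactivates ERK. Its level was 111 and 99.2 TPM in wild-type cells at day 0 and 16.1, 17.5 and 17.6 TPM at day 3, but 69.8, 69.8 and 77.3 TPM and 51.0, 58.9 and 55.9 TPM in knockout cells. Wild-type cells lost most of the transcript, while the fall in knockout cells was -0.38 on the log2 scale, and the groups did not overlap on either day. The difference of 2.17 ± 0.13 (adjusted p = 1.2e-06) was the largest of the list.

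The Sprouty and Spred genes encode inhibitors of signalling from receptor to ERK. *Spry2* was at 36.5, 35.3 and 34.5 TPM in wild-type cells against 73.5, 79.5 and 77.1 TPM in knockout cells at day 3, after 283 and 302 TPM and 247, 240.4 and 255 TPM at day 0 (difference 1.33 ± 0.10, adjusted p = 6.7e-06). *Spry4* almost vanished in wild-type cells, with 0.848, 1.06 and 0.809 TPM at day 3, and was at 2.07, 2.73 and 3.48 TPM in knockout cells (difference 1.44 ± 0.20). *Spry1* took another course, as it stayed level in wild-type cells, from 14.6 and 14.4 TPM to 13.5, 12.9 and 13.0 TPM, and rose in knockout cells, from 13.7, 13.8 and 14.3 TPM to 29.7, 25.5 and 28.3 TPM. *Spred1* and *Spred2* fell by 1.64 on the log2 scale in wild-type cells and by 0.46 and 0.39 in knockout cells.

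The ETS factors fell in both genotypes, and less in the knockout. *Etv4* went from 269 and 276 TPM to 1.67, 2.18 and 1.35 TPM in wild-type cells and from 240.4, 248 and 243 TPM to 5.68, 7.85 and 5.69 TPM in knockout cells (difference 1.60 ± 0.19, adjusted p = 0.0005). *Etv5* was at 15.5, 17.1 and 15.6 TPM in wild-type cells against 32.2, 37.6 and 40.1 TPM in knockout cells at day 3 (difference 1.25). *Etv1* was the only 1 of the 10 that did not pass without wild-type replicate 1 at day 0. Among the 10 members that did not pass, *Myc* had a difference of 0.84 with an adjusted p of 0.0021, under the 2-fold limit, and the phosphatase gene *Dusp5* had the lowest value of the list, -1.34 (adjusted p = 0.17), which became -0.22 without wild-type replicate 1 at day 0, where it was at 2.03 TPM against 13.3 TPM in replicate 2. *Il17rd*, *Spred3* and *Upp1* are not in the list and were picked after their values were seen. *Il17rd*, which encodes an inhibitor of FGF signalling, had a difference of 1.95 ± 0.20 (adjusted p = 0.00011), *Spred3* one of 1.14 ± 0.29 (adjusted p = 0.03), and *Upp1*, which encodes uridine phosphorylase, one of 2.16 ± 0.11 (adjusted p = 4.9e-07). That of *Spred3* was 0.99, under the 2-fold limit, without wild-type replicate 2 at day 0. RefSeq promoter sequences, from 250 bases before to 50 after the start, were found for 13 of the 20 list members, and CCGGAAG, an ETS binding site, was in none of the 13 on either strand, while 8.86% of 32851 promoters hold it. At that share, 13 promoters are too few for the absence to set the list apart from other genes.

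**Figure D3:**
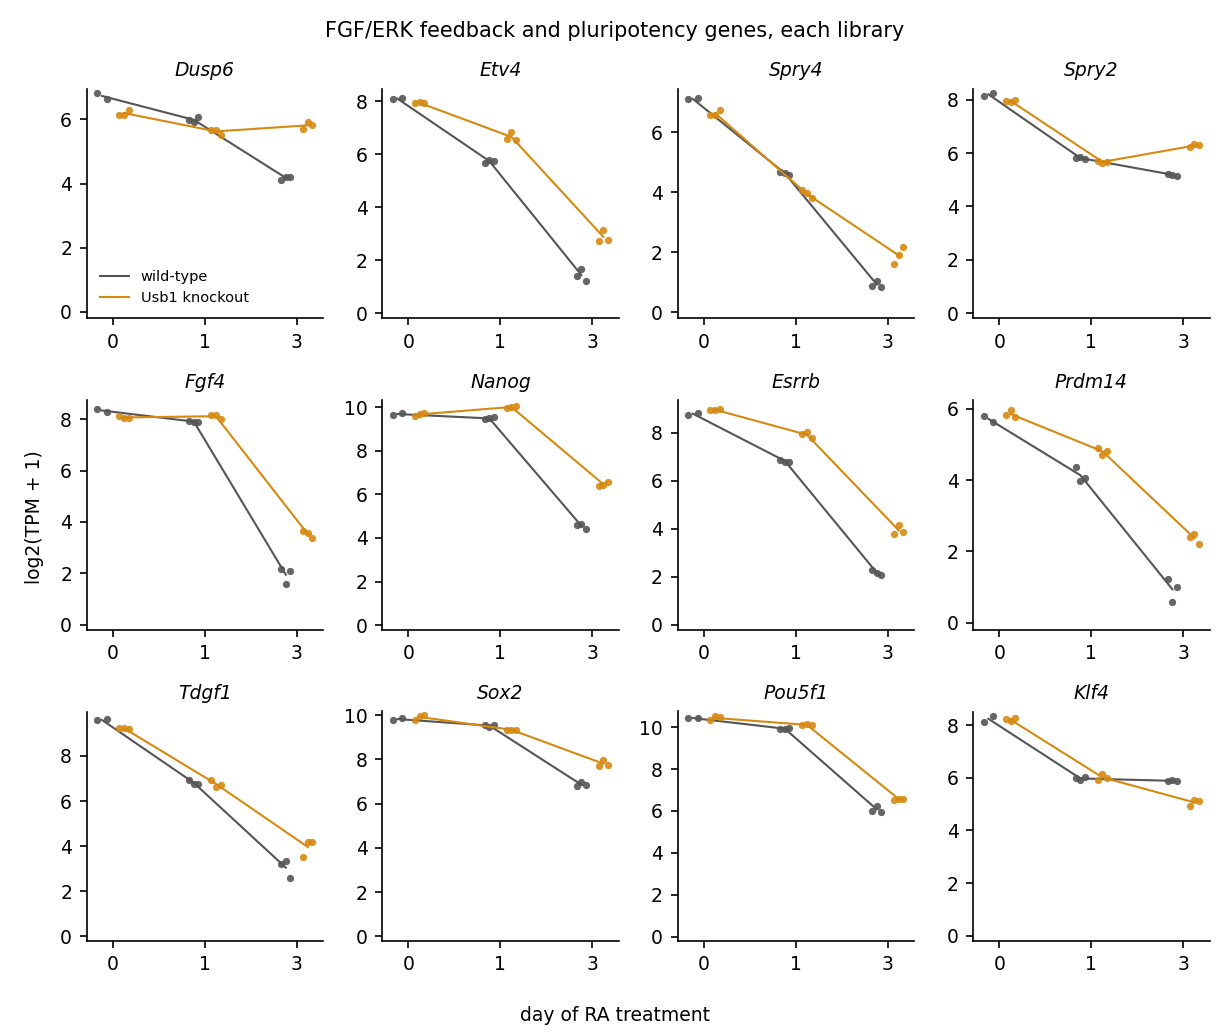
Level of 12 genes of FGF signalling and pluripotency as log2(TPM + 1) by day of RA treatment, with 1 point per library and lines through the group means. For *Dusp6*, *Etv4*, *Spry4*, *Spry2*, *Fgf4*, *Nanog*, *Esrrb*, *Prdm14*, *Tdgf1*, *Sox2* and *Pou5f1* the knockout points at day 3 lie above the wild-type points, and for *Klf4* below them.

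The naive pluripotency factors also fell less in the knockout where they passed. Of 15 tested, 4 passed with a positive difference (*Nanog*, *Fgf4*, which is in both lists, *Esrrb* and *Prdm14*) and 0 with a negative one, and the median was 0.48. Among all genes tested, 1.43% passed as positive and 1.17% as negative. *Nanog* (chr6:122707489-122714633) was at 803 and 836 TPM in wild-type cells at day 0 and 23.5, 24.2 and 20.2 TPM at day 3. Knockout cells had 764, 809 and 859.8 TPM and 82.0, 86.3 and 93.3 TPM, so the groups overlapped at day 0 and lay far apart at day 3 (difference 1.92 ± 0.12, adjusted p = 2.0e-06). The nuclear receptor gene *Esrrb* fell by 6.62 on the log2 scale in wild-type cells and by 5.03 in knockout cells, to 3.82, 3.49 and 3.18 TPM and 12.6, 16.8 and 13.4 TPM. *Prdm14*, which encodes a repressor of FGF signalling and DNA methylation genes, reached 1.35, 0.495 and 0.995 TPM and 4.31, 4.62 and 3.65 TPM (difference 1.30 ± 0.24).

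The partners of *Nanog* had smaller positive values, under the 2-fold limit. *Sox2* had a difference of 0.85 ± 0.13 (adjusted p = 0.0019), with 109, 123 and 112 TPM in wild-type cells against 209.6, 249 and 211 TPM in knockout cells at day 3. *Pou5f1* had one of 0.49 ± 0.12 (adjusted p = 0.027), with 63.8, 74.7 and 61.2 TPM and 90.7, 95.0 and 95.5 TPM. *Klf4* had a negative value, with 57.6, 58.9 and 57.4 TPM in wild-type cells against 29.2, 34.5 and 33.7 TPM in knockout cells at day 3 (difference -0.79 ± 0.12, adjusted p = 0.0021), also under the 2-fold limit. In the list of core and formative factors, 2 of 21 passed as positive, with *Etv5* among them, and 1 as negative, beside 1.43% and 1.17% of all genes tested. The negative gene was *Tdh*, which encodes the threonine dehydrogenase that mouse embryonic stem cells rely on. It fell from 442 and 426 TPM to 16.9, 25.6 and 20.1 TPM in wild-type cells and from 498, 521 and 535 TPM to 9.48, 9.31 and 8.38 TPM in knockout cells (difference -1.36 ± 0.17, adjusted p = 0.00074), so it was lost more completely in the knockout. Its order at day 1 was the opposite, with 10.7, 11.4 and 10.02 TPM in wild-type cells against 35.2, 35.2 and 32.8 TPM in knockout cells. The Nodal coreceptor gene *Tdgf1* (1.28 ± 0.29) and *Nodal* (1.06 ± 0.17) passed as positive among 17 genes of that pathway, *Nodal* not without wild-type replicate 1 at day 0.

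The promoter of *Nanog* is shown because its transcript had the smallest adjusted p of the pluripotency genes, and those of *Rarb* and *Cyp26a1* because they carry the element through which RA receptors act. The sequences are from RefSeq (GRCm38.p6), cover 250 bases before to 50 after the start site, and run 5′ to 3′ on the strand of the gene. They lie at chr6:122707239-122707538 (plus strand), chr14:16575427-16575726 (minus strand, inside the annotated span of the gene) and chr19:37697558-37697857 (plus strand). Capitals in *Nanog* mark a composite Sox2 and Oct4 site, CATTGT followed after 1 base by ATGCNAA, which starts 75 bases before the start site on the opposite strand. In the other promoters they mark a direct repeat of RA receptor sites with 5 bases between them, where each site has the letters AGGTCA or is the variant GGGTCA, the variant AGTTCA or the variant GGTTCA. Both strands were searched.
Nanog: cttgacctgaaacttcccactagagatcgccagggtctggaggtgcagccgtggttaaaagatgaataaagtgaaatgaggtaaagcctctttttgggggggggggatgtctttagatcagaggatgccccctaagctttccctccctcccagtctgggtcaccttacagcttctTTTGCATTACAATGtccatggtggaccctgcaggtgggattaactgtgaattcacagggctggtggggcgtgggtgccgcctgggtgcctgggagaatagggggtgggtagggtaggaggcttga
Rarb: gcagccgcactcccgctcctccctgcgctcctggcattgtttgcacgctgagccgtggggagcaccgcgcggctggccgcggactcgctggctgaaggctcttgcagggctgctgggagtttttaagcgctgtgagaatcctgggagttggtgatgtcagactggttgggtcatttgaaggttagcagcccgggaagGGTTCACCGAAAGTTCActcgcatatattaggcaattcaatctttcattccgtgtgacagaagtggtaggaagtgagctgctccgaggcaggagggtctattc
Cyp26a1: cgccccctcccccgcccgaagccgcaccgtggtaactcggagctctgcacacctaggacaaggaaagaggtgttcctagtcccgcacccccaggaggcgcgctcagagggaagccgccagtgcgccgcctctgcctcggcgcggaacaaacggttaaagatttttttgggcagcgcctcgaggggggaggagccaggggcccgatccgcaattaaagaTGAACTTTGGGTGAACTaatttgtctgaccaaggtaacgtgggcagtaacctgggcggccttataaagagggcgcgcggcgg
The composite site was in 2 of 32851 promoters (0.00609%), both entries of *Nanog*, and the repeat in 32 (0.0974%). A match is a description of the sequence.

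The genes with the RA element in the printed promoters rose strongly in both genotypes, and their differences did not pass. *Rarb*, which encodes an RA receptor, went from 0.517 and 0.0429 TPM to 23.3, 24.1 and 28.1 TPM in wild-type cells and from 0.329, 0 and 0.371 TPM to 14.97, 19.11 and 14.8 TPM in knockout cells (difference -0.56 ± 0.28, adjusted p = 0.24). *Cyp26a1*, which encodes the enzyme that degrades RA, was at 440.1, 419 and 347 TPM in wild-type cells against 84.3, 113 and 69.0 TPM in knockout cells at day 3. Its level at day 3 was lower in each knockout library, but so was its level at day 0, at 0, 0.354 and 0 TPM against 3.66 and 1.78 TPM. Near 0 the pseudocount decides the sign of the difference, which was -0.48 ± 0.31 (adjusted p = 0.36) with a pseudocount of 1 and 1.81 with 0.1. No direction can be given for it.

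Among 18 genes of RA metabolism, binding and receptors, 1 passed in each direction and the median was 0.01. Among all genes tested, 1.43% passed as positive and 1.17% as negative. *Crabp2*, which encodes a protein that carries RA to its receptors, was at 82.6, 101 and 73.5 TPM in wild-type cells against 148, 141 and 130.3 TPM in knockout cells at day 3, after 5.86 and 2.73 TPM and 1.64, 1.27 and 2.79 TPM at day 0 (difference 1.55 ± 0.33, adjusted p = 0.013). At day 1 its order was reversed, with 71.1, 61.0 and 65.5 TPM in wild-type cells against 11.6, 6.90 and 8.28 TPM in knockout cells. *Dhrs3*, which encodes an enzyme that turns retinaldehyde back into retinol, rose to 101, 100.1 and 91.7 TPM in wild-type cells against 51.3, 59.3 and 41.9 TPM in knockout cells (difference -1.07 ± 0.20, adjusted p = 0.0071). Neither passed when limma's voom, which works on counts, was run on the recovered reads (adjusted p = 0.13 for *Crabp2* and 0.16 for *Dhrs3*). The difference of *Dhrs3* was -0.95, under the 2-fold limit, when wild-type replicate 2 at day 0 was left out. Of 14 other genes induced by RA, *Gbx2* passed as positive (1.20, but not with voom) and *Tgm2*, the transglutaminase gene, as negative. *Tgm2* rose from 17.3 and 21.2 TPM to 34.1, 32.3 and 38.3 TPM in wild-type cells and fell from 44.4, 45.8 and 49.3 TPM to 22.1, 23.4 and 24.0 TPM in knockout cells (difference -1.81 ± 0.15, adjusted p = 3.3e-05). *Stra8*, a germ cell gene induced by RA, had a difference of 0.77, under the 2-fold limit (adjusted p = 0.0034).

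The *Hox* genes, which give cells their place along the body axis, rose in both genotypes. Of 22 tested, *Hoxc8* passed as positive and *Hoxa4* as negative, beside 1.43% and 1.17% of all genes tested. The median was -0.19, and the median response was 3.85 in wild-type and 3.71 in knockout cells. The list changed with the setting. A pseudocount of 0.1 gave 0 positive and 4 negative calls, voom gave 0 and 1 with a median of -0.76, and the median was -0.0011 after quantile normalization. *Hoxb1*, at 0 in each library of both genotypes at day 0, reached 39.6, 36.5 and 33.6 TPM in wild-type cells against 38.8, 43.1 and 40.9 TPM in knockout cells. *Hoxa4* did not pass without wild-type replicate 1 at day 0 or with voom, and *Hoxc8*, at 0 in each knockout library at day 0, was at 15.9, 15.6 and 12.7 TPM and 22.0, 27.3 and 27.9 TPM at day 3 (difference 1.01 ± 0.26, adjusted p = 0.032) and did not pass without wild-type replicate 2 at day 0 (1.01 became 0.77), with libraries scaled to an equal median (0.95) or with voom (2.46). None of the 11 TALE homeobox genes, whose proteins partner with Hox proteins, passed.

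**Figure D4:**
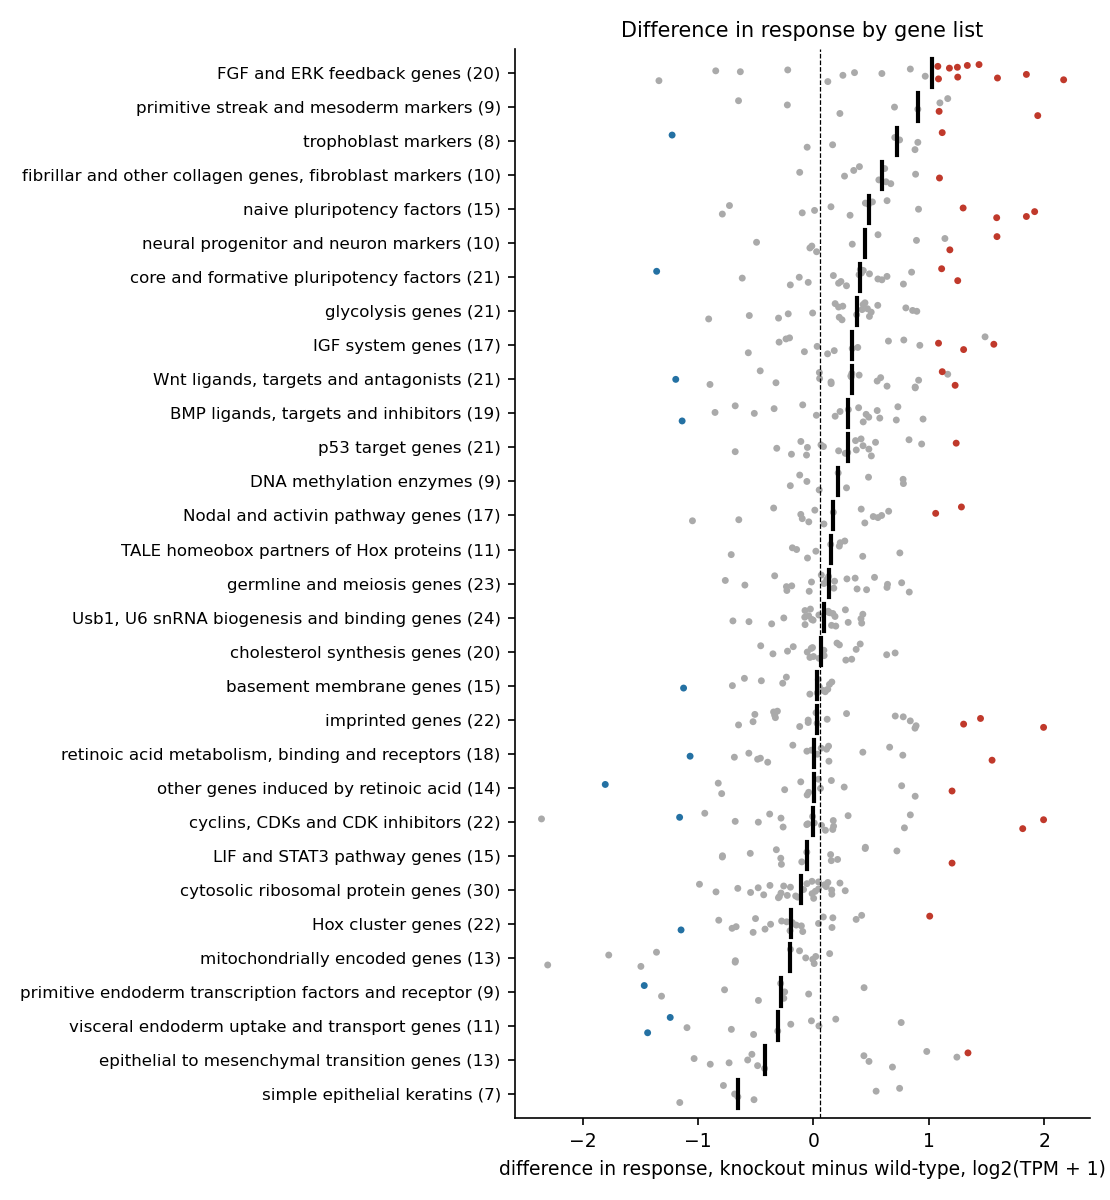
Difference in response (knockout minus wild-type, log2(TPM + 1)) of each gene tested in the 31 lists with at least 5 such genes, with the number tested in brackets. Black bars are list medians, the dashed line is the median of all genes (0.06), red and blue points passed the test as positive and negative, and the FGF and ERK feedback genes have the highest median (1.02).

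Several genes of the extraembryonic endoderm rose less in the knockout. Of 9 primitive endoderm factors, 8 had values below 0 and 1 passed as negative, beside 1.17% of all genes tested. The median was -0.28, beside 0.06 over all genes. The list did not keep these values under other settings, as the median was 0.06 with 0 calls with voom and -0.0080 with 1 positive and 0 negative calls with a pseudocount of 0.1. *Sox17* (chr1:4490931-4497354), an endoderm transcription factor gene, was at 0 and 0.331 TPM in wild-type cells against 0, 0 and 0.091 TPM in knockout cells at day 0. By day 3 it had reached 40.0, 40.3 and 38.6 TPM and 13.5, 12.6 and 10.4 TPM (difference -1.47 ± 0.24, adjusted p = 0.003). *Gata4* showed a like gap at day 3, 81.7, 88.8 and 92.7 TPM against 25.9, 30.5 and 21.4 TPM, but did not pass (difference -1.32 ± 0.38, adjusted p = 0.054). *Gata6* had a lower level in knockout cells on each day, with a difference in response of -0.04 ± 0.16. The 5 primitive endoderm markers summed to 439 to 473 TPM in wild-type and 221 to 261 TPM in knockout libraries at day 3. Their sums were 68.1 to 70.5 TPM and 16.3 to 19.7 TPM at day 1, and 8.89 to 21.1 TPM and 8.68 to 9.13 TPM at day 0. In bulk samples, fewer cells of a type and less RNA per cell cannot be told apart.

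Some of the genes that such cells express passed as negative, beside 1.17% of all genes tested. *Lama1* (chr17:67697259-67822647), a laminin chain of the basement membrane, was at 1114, 985 and 1265 TPM in wild-type cells against 339, 423 and 353 TPM in knockout cells at day 3, after 134 and 144 TPM and 115, 94.4 and 93.0 TPM at day 0 (difference -1.13 ± 0.17, adjusted p = 0.0019). It was the only 1 of 15 basement membrane genes that passed, and the median of that list was 0.03. Among 11 visceral endoderm genes, *Ttr*, which encodes transthyretin, and *Apoc1*, which encodes an apolipoprotein, passed as negative. *Ttr* was at 81.7, 80.1 and 67.2 TPM and 34.2, 28.6 and 24.8 TPM at day 3 (difference -1.24 ± 0.22, adjusted p = 0.0055), and was listed at 0 in each knockout library at day 0. *Apoc1* differed instead at day 0, at 10.7 and 7.89 TPM in wild-type cells against 28.8, 31.0 and 38.8 TPM in knockout cells, and overlapped at day 3. The hedgehog ligand gene *Ihh* rose to 37.2, 36.7 and 38.3 TPM in wild-type cells against 17.03, 16.4 and 15.6 TPM in knockout cells (difference -1.92 ± 0.27, adjusted p = 0.0015). *Bmp2* reached 10.3, 11.8 and 14.7 TPM and 5.77, 6.92 and 4.97 TPM (difference -1.14 ± 0.27), and the Wnt antagonist gene *Sfrp5* 104, 108 and 97.4 TPM and 43.0, 38.7 and 25.3 TPM (difference -1.19 ± 0.25). *Sox17*, *Ttr*, *Apoc1*, *Bmp2* and *Sfrp5* kept their sign but did not pass with voom, where their differences were -0.60, -0.65, -1.57, -3.09 and -1.22, and the visceral endoderm list then held 0 negative and 1 positive call. For *Sox17*, *Ttr* and *Bmp2* this goes with levels near 0 at day 0.

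Collagen and fibroblast genes had mostly positive values. Of 10 collagen and fibroblast genes, 9 had values above 0, *Col3a1* passed, and the median was 0.59, beside 0.06 over all genes. Among all genes tested, 1.43% passed as positive. *Col3a1*, a fibrillar collagen gene, was at 4.14, 3.94 and 4.40 TPM in wild-type cells against 9.35, 10.1 and 10.8 TPM in knockout cells at day 3 (difference 1.09 ± 0.24, adjusted p = 0.016), and did not pass with voom (0.71). The 7 fibroblast markers summed to 44.5 to 54.2 TPM in wild-type and 71.7 to 80.3 TPM in knockout libraries at day 3 and to under 10 TPM in each library at day 0, where *Dcn*, *Lum* and *Postn* were at 0. *Vim*, which encodes the intermediate filament vimentin, differed at day 0 rather than at day 3. Its level was 239.7 and 241 TPM in wild-type cells against 86.4, 91.9 and 88.3 TPM in knockout cells at day 0, then 504, 535 and 530.3 TPM against 516, 460.0 and 506 TPM at day 3 (difference 1.34 ± 0.09, adjusted p = 6.2e-06). Levels were thus close at day 3 and the larger rise in knockout cells started from a lower level. *Vim* was the only 1 of 13 genes of the epithelial to mesenchymal transition that passed, and in that list 6 values were above 0, 7 below, and the median was -0.42. None of the 7 keratin genes passed, and *Krt8*, at about the same level in both genotypes at day 3, had a difference of -0.78 (adjusted p = 0.0017).

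The IGF system held 3 positive genes among 17 tested, beside 1.43% of all genes tested. *Igfbp3* (chr11:7206086-7213923), which encodes a protein that binds insulin-like growth factors, was at 62.6, 56.8 and 60.2 TPM in wild-type cells against 255, 269 and 274 TPM in knockout cells at day 3, after 5.15 and 11.4 TPM and 12.8, 12.8 and 10.4 TPM at day 0 (difference 1.56 ± 0.28, adjusted p = 0.0053). The growth factor gene *Igf2* reached 16.5, 15.1 and 23.5 TPM and 31.3, 52.5 and 48.0 TPM (difference 1.30 ± 0.33, adjusted p = 0.029), and *Igfbp4* 30.7, 33.4 and 33.5 TPM and 67.7, 72.8 and 63.8 TPM, without passing when wild-type replicate 1 at day 0 was left out. *Igf2* did not pass with voom (adjusted p = 0.69) or with a pseudocount of 0.1 (adjusted p = 0.22). It is also 1 of 3 positive genes among 22 imprinted genes, with *Peg10*, a gene derived from a retrotransposon (1.45 ± 0.21), and *Cdkn1c*. The cell cycle inhibitor gene *Cdkn1c* fell from 92.5 and 116 TPM to 78.3, 85.7 and 81.0 TPM in wild-type cells and rose from 36.0, 45.5 and 46.5 TPM to 149.9, 124 and 134 TPM in knockout cells (difference 2.00 ± 0.17, adjusted p = 3.3e-05). It was lower in each knockout library at day 0 and higher in each at day 3.

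Of 22 cyclin and CDK genes, *Ccnd1* also passed as positive and *Cdkn2c* as negative, beside 1.43% and 1.17% of all genes tested. *Ccnd1*, which encodes cyclin D1, fell to 5.55, 6.73 and 7.73 TPM in wild-type cells against 23.2, 21.7 and 23.7 TPM in knockout cells, from 106 and 120.1 TPM and 97.5, 101 and 103 TPM (difference 1.81 ± 0.16, adjusted p = 4.1e-05). *Cdkn2c*, an inhibitor of CDK4 and CDK6, did not pass without wild-type replicate 1 at day 0 or with voom. The lowest value of the list was that of *Cdkn2a* (-2.36 ± 0.75, adjusted p = 0.074), which was at 0 and 7.32 TPM in wild-type cells at day 0 and became -0.83 without the library at 0. *Pmaip1*, 1 of 21 p53 targets, passed as positive (1.24 ± 0.17).

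**Figure D5:**
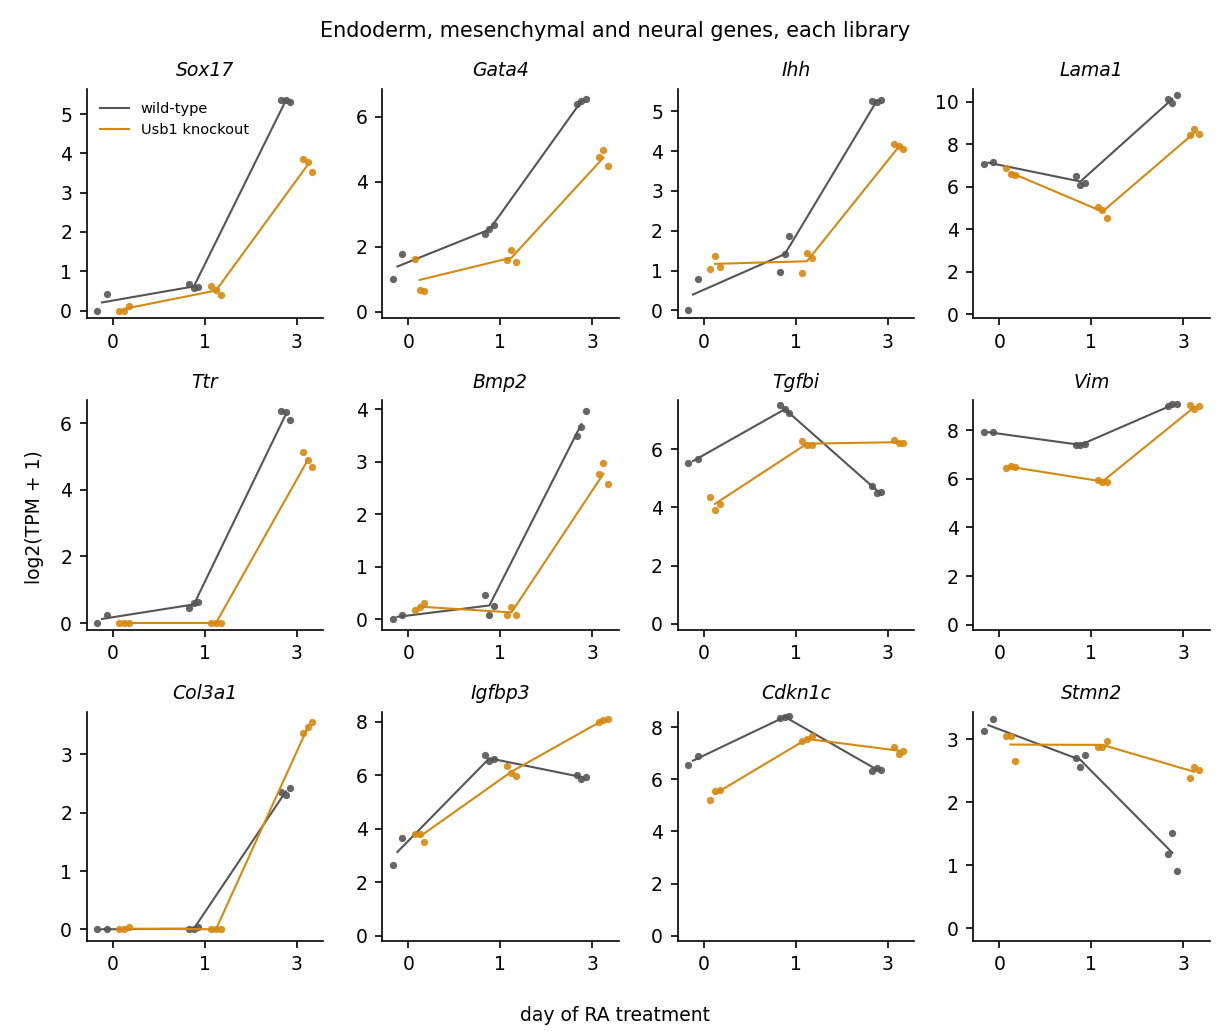
Level of 12 endoderm, mesenchymal, neural and other genes as log2(TPM + 1) by day of RA treatment, with 1 point per library and lines through the group means. *Sox17*, *Gata4*, *Ihh*, *Lama1*, *Ttr* and *Bmp2* end lower in knockout cells, *Tgfbi*, *Col3a1*, *Igfbp3*, *Cdkn1c* and *Stmn2* end higher, and *Vim* starts lower and ends at a like level.

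Some markers of other lineages passed. Among all genes tested, 1.43% passed as positive and 1.17% as negative. Of 10 neural genes, *Stmn2*, which encodes a tubulin-binding protein of neurons, and the adhesion gene *Ncam1* passed as positive. *Stmn2* fell from 7.73 and 8.99 TPM to 1.27, 1.85 and 0.87 TPM in wild-type and from 7.27, 7.25 and 5.31 TPM to 4.22, 4.88 and 4.71 TPM in knockout cells (difference 1.59 ± 0.28, adjusted p = 0.0047). Of 9 mesoderm genes, *Gata2* (1.09 ± 0.24) and *Foxc2* passed as positive, *Foxc2* not without wild-type replicate 1 at day 0 and not with voom. In the trophoblast list of 8 genes, *Tfap2c* (1.12 ± 0.20) was positive and *Tead4* (-1.23 ± 0.17) negative. The Wnt receptor gene *Fzd10* (1.23 ± 0.17) and the ligand gene *Wnt6* (1.12 ± 0.20) were positive among 21 Wnt genes. Without wild-type replicate 2 at day 0, the differences of *Gata2* and *Wnt6* were 0.74 and 0.77, under the 2-fold limit. *Pax6* and *T* were below the expression filter.

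*Tgfbi* (chr13:56609523-56639562), which encodes a secreted matrix protein induced by TGF-beta, had the largest positive difference of all, 3.12 ± 0.17 (adjusted p = 4.9e-07). It fell from 45.1 and 49.1 TPM to 25.4, 21.7 and 21.9 TPM in wild-type cells and rose from 19.3, 14.1 and 16.1 TPM to 77.7, 73.6 and 72.1 TPM in knockout cells. The order of the genotypes was thus reversed between the days, with no overlap on either. On day 1 it stood at 179.6, 165 and 150.1 TPM in wild-type cells against 77.0, 69.9 and 68.7 TPM in knockout cells, so the order of day 0 still held then. Others among the 12 largest positive values were those of *R3hdml* (2.85), *AC170998.1* (2.59), *Ndufa4l2* (2.49), *Aire* (2.45), *Aqp3* (2.41), *Scgb3a1* (2.39), *Ldoc1* (2.25), *Prmt8* (2.24), *Shisa3* (2.22) and *Igdcc3* (2.19). *Aqp3*, a water and glycerol channel, was lower in knockout cells at day 0, at 74.7, 78.1 and 77.6 TPM against 155 and 184 TPM, and higher at day 3, at 23.9, 32.4 and 21.9 TPM against 11.3, 10.9 and 7.99 TPM. *Igdcc3* rose to 87.5, 82.0 and 107 TPM in wild-type cells against 202, 236 and 213 TPM in knockout cells.

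The largest negative difference was that of *Serpinb6c*, a gene of the serpin B6 family of serine protease inhibitors (-4.80 ± 0.40, adjusted p = 3.3e-05). It rose from 2.41 and 7.95 TPM to 23.3, 25.8 and 21.8 TPM in wild-type cells and fell from 64.6, 64.9 and 71.0 TPM to 13.2, 8.84 and 8.11 TPM in knockout cells. Its family has close copies, so reads may be split between them and the value is uncertain. The other 11 of the 12 largest negative values were those of *Pdzd7* (-2.26), *Crb3* (-2.08), *Slc39a8* (-2.08), *Plaur* (-2.04), *Cnksr1* (-2.02), *Pak6* (-1.94), *Ihh*, *Hopx* (-1.89), *Birc7* (-1.86), *Slco2a1* (-1.83) and *Tgm2*. *Plaur*, the receptor of urokinase, rose from 16.4 and 21.1 TPM to 80.9, 75.2 and 69.7 TPM in wild-type cells and stayed level in knockout cells, from 37.2, 45.5 and 41.6 TPM to 39.0, 44.4 and 33.7 TPM. *Hopx*, which encodes a small homeodomain protein, was at 21.7, 22.6 and 22.8 TPM in knockout cells at day 0 against 4.97 and 4.32 TPM in wild-type cells, and the genotypes overlapped at day 3. *Crb3*, *Slc39a8*, *Cnksr1* and *Ihh* were listed at 0 in wild-type replicate 1 at day 0, and without that library their values were -1.44, -1.801, -1.0 and -1.52. Of the 301 genes, 209 passed without that library too (129 of 166 positive and 80 of 135 negative genes).

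Several lists held 0 genes that passed. None of the 24 genes of U6 snRNA biogenesis and binding passed, *Usb1* included, and 1 had an adjusted p under 0.05. *Tut1*, which adds the U6 tail that *Usb1* trims, was at 66.5, 60.9 and 64.8 TPM in wild-type cells against 56.5, 66.2 and 63.4 TPM in knockout cells at day 3 (difference -0.07 ± 0.15, adjusted p = 0.8). Of the glycolysis genes, 10 of 21 identifiers (*Aldoa* is listed under 2) had an adjusted p under 0.05 and a positive value, each under the 2-fold limit, with a list median of 0.37. Of all 11574 genes tested, 545 had an adjusted p under 0.05 and a positive value. There were also 0 calls among 9 DNA methylation enzymes (*Dnmt3b* -0.20 ± 0.15), 23 germline genes, 20 cholesterol synthesis genes, 30 ribosomal protein genes and 13 mitochondrially encoded genes. In these 5 lists, 1, 1, 2, 2 and 0 genes had an adjusted p under 0.05, beside 7.94% of all genes tested. Among the lists of LIF and of interferon-induced transmembrane genes, *Gbx2* and *Ifitm3* (-1.01 ± 0.11) passed. *Ifitm3* was at 195 and 196 TPM in wild-type cells against 904, 962 and 935 TPM in knockout cells at day 0. At day 3 it was still higher in each knockout library, with 1249, 962 and 960 recovered reads against 446, 459 and 373 in wild-type libraries. Over the 34 lists together, 488 of 604 genes were tested, of which 35 passed as positive and 13 as negative, beside 1.43% and 1.17% of all genes tested. The lists were drawn up with earlier results of these data known, so these counts are no measure of enrichment.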

How the data were processed

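RNA was sequenced from NEBNext Ultra libraries, and the submitters' processing notes name HISAT2 2.1.0, StringTie 1.3.6 and GRCm38.p6. The authors calculated the deposited TPM from the reads counted on each gene and its length, and the DESeq2 test they used needs counts, which the table does not hold. Reads were recovered as TPM multiplied by the GENCODE M21 exon length and divided by the step of the library, and came out whole (within 0.01) for 96.3% to 97.0% of the genes, the highest levels left aside. Intervals of counting error were not needed, since comparisons used the spread between libraries. The table holds no other samples.

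Protein-coding genes that reached 5 TPM in 2 or more of the 11 libraries were tested with limma 3.58.1 in R 4.3.3 on log2(TPM + 1), a scale that understates the change of genes of low TPM. The fit had 4 group means and an empirical Bayes trend, and P-values were adjusted by Benjamini-Hochberg over 11574 genes. The samples are repeats of 1 line per genotype, so p-values measure the spread between these repeats, which may be technical. In simulated data of 11574 genes, with noise of equal size in all libraries, 99.5% of 200 genes changed by 2 on the log2 scale were recovered, with 8 false calls. In the real data the wild-type libraries at day 0 were less alike (r = 0.9739) than those of the other groups. A change of 2 is also above the median difference of the called genes (1.30 for positive and -1.27 for negative genes). The simulated figures are thus not error rates of the test on the real data. A fitted value of a gene at 0 in a whole group depends on the pseudocount.

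The genes, the 34 lists and the comparison were chosen with earlier results of these data known. Named are the 12 largest positive and 12 largest negative differences, up to 4 called genes per list and direction, and a set of genes kept whatever their call, such as *Usb1* and *Pou5f1*. The genes outside this rule, chosen after their values were seen, are *Il17rd*, *Spry1*, *Spry2*, *Spred1*, *Spred2*, *Spred3*, *Etv1*, *Upp1*, *Klf4*, *Krt8*, *Myc*, *Fgfr1*, *Dusp5*, *Cdkn2a* and those of the closing observations. Some genes that the rule names are not reported here. No set test was run. Whether samples of the same replicate number belong together is not stated, and the fit did not pair them. Tables and figures were made in Python 3.11.15 with pandas 2.3.3, numpy 2.4.6 and matplotlib 3.10.9.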

Additional observations from a re-analysis of the deposited data

Results flagged for a closer look

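The response to 3 days of RA differed between the genotypes, by the test of the difference itself, in 301 genes of 11574 tested. The values below are the differences in response (knockout minus wild-type, log2(TPM + 1)) of the named genes among them, from limma with an adjusted p under 0.05.

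The genes are grouped by the sign of the mean response in each genotype, whether or not that response passed a test. Of the positive genes, these had a response below 0 in wild-type and above 0 in knockout cells: *Tgfbi* (3.12), *R3hdml* (2.85), *AC170998.1* (2.59), *Ndufa4l2* (2.49), *Ldoc1* (2.25), *Cdkn1c* (2.00), *Pmaip1* (1.24) and *Ncam1* (1.18). Those that fell less in knockout cells were *Aire* (2.45), *Aqp3* (2.41), *Scgb3a1* (2.39), *Prmt8* (2.24), *Dusp6* (2.17), *Nanog* (1.92), *Fgf4* (1.85), *Ccnd1* (1.81), *Etv4* (1.60), *Stmn2* (1.59), *Esrrb* (1.59), *Spry4* (1.44), *Prdm14* (1.30), *Tdgf1* (1.28), *Etv5* (1.25), *Fzd10* (1.23), *Gbx2* (1.20), *Tfap2c* (1.12) and *Nodal* (1.06). Those that rose more in knockout cells were *Shisa3* (2.22), *Igdcc3* (2.19), *Foxc2* (1.95), *Igfbp3* (1.56), *Crabp2* (1.55), *Peg10* (1.45), *Vim* (1.34), *Igf2* (1.30), *Wnt6* (1.12), *Col3a1* (1.09), *Gata2* (1.09), *Igfbp4* (1.08) and *Hoxc8* (1.01).

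Of the negative genes, *Hopx* (-1.89), *Tdh* (-1.36), *Tead4* (-1.23) and *Ifitm3* (-1.01) fell more in knockout cells. Those with a response above 0 in wild-type and below 0 in knockout cells were *Serpinb6c* (-4.80), *Pdzd7* (-2.26), *Plaur* (-2.04, with a knockout response of -0.09), *Pak6* (-1.94), *Tgm2* (-1.81) and *Apoc1* (-1.44). Those that rose less in knockout cells were *Crb3* (-2.08), *Slc39a8* (-2.08), *Cnksr1* (-2.02), *Ihh* (-1.92), *Birc7* (-1.86), *Slco2a1* (-1.83), *Sox17* (-1.47), *Ttr* (-1.24), *Sfrp5* (-1.19), *Cdkn2c* (-1.16), *Hoxa4* (-1.15), *Bmp2* (-1.14), *Lama1* (-1.13) and *Dhrs3* (-1.07).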

How the results depend on the processing

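The 301 calls (166 positive, 135 negative) became 171 (94 and 77) with a filter at 20 TPM, 919 (545 and 374) with adjusted p alone and 709 (405 and 304) with a 1.5-fold limit, which follows from the thresholds themselves. A pseudocount of 5, with the same thresholds, gave 149 calls (76 and 73), of which 134 were shared. It ended the call of 20 of the 81 called genes named here. Leaving out each library in turn gave 216 to 739 calls, 122 to 279 positive and 92 to 460 negative. The highest of each came without wild-type replicate 2 at day 0, which leaves replicate 1, with its few low genes, as the only such library, assumed to vary like the other groups. Leaving out replicate 1 gave 287 calls, and 209 of the 301 genes were among them. Leaving out both libraries with few low genes, an alternative chosen after seeing the data, gave 348. With libraries scaled to an equal median, 135 calls were positive and 162 negative. Voom on the recovered reads gave 277 calls, of which 203 were shared, and ended the call of 20 of the 81 called genes named here (*Crb3*, *Hopx*, *Chac1*, *Sox17*, *Apoc1*, *Nupr1*, *Ttr*, *Sfrp5*, *Cdkn2c*, *Hoxa4*, *Bmp2*, *Dhrs3*, *Hoxc8*, *Col3a1*, *Rex2*, *Gbx2*, *Igf2*, *Crabp2*, *Foxc2* and *Scgb3a1*). A pseudocount of 0.1 ended that of 10 (*Cnksr1*, *Chac1*, *Sox17*, *Nupr1*, *Ttr*, *Hoxc8*, *Col3a1*, *Rex2*, *Igf2* and *Foxc2*). Deviations from the group means had r from -0.26 to 0.37 between same-numbered libraries, over 0.1 in 3 of 15 pairs, against 7 of 30 other pairs. Groups this small cannot settle whether the samples were paired. A fit with the replicate number as a block gave 324 calls, of which 279 were shared with the 301 genes. Over 28 alternatives, none reversed the sign of a called gene named here, and 203 of 2248 gene values lost the call. The values that changed sign belong to genes that did not pass. *Cyp26a1* was 1.81 with a pseudocount of 0.1 and 2.42 with voom, and *Tut1* was -0.27 to 0.12 when each library was left out and 0.19 without both libraries with few low genes. *Gata6* was 0.98 with a pseudocount of 0.1, 1.23 with voom, 0.0041 after quantile normalization, 0.0053 with library weights, -0.080 to 0.013 when each library was left out and 0.015 without both libraries with few low genes. The FGF and ERK feedback list had 9 to 10 positive calls under quantile normalization, an equal median and voom (median 0.73 to 1.11) and 6 with a pseudocount of 5, and *Dusp5* was negative and called with voom.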

Other observations

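The genes of this section were chosen after their values were seen. On chromosome 4 of GRCm38, the window from *Zfp990* to *Zfp933* (chr4:145510759-147848366) holds a cluster of zinc finger genes, of which 20 were tested. All 20 were lower in knockout than in wild-type cells at day 0 (median difference -1.31 on the log2 scale) and 19 at day 3 (median -0.56). The same medians over all genes tested were -0.05 and 0.01. Each of the 20 fell in wild-type cells (median response -1.92), and the median response of the knockout cells, which started lower, was -1.09. The difference in response was above 0 for 19 of the 20 (median 0.67, beside 0.06 over all genes tested). Those that passed, beside 1.43% of all genes tested as positive, were *Zfp989* (1.62 ± 0.25), *Zfp600* (1.38 ± 0.28), *Zfp981* (1.33 ± 0.23) and *Rex2* (1.12 ± 0.28). *Rex2* did not pass without wild-type replicate 1 at day 0, with a pseudocount of 0.1 or with voom. *Zfp981* was at 30.1 and 25.4 TPM in wild-type cells against 4.59, 5.56 and 5.21 TPM in knockout cells at day 0, then 14.6, 12.5 and 15.7 TPM and 5.30, 5.45 and 5.03 TPM at day 1, and at 7.85, 6.61 and 7.11 TPM and 3.55, 2.59 and 4.10 TPM at day 3, so the genotypes were apart on each day and closest at day 3. The genes of the cluster are near copies of each other, and reads may be split between them.

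*Chac1*, *Atf5*, *Psph*, *Nupr1* and *Atf3* passed as negative and were higher in each knockout than in each wild-type library at day 0. *Chac1*, which encodes an enzyme that breaks down glutathione, was at 6.14 and 8.0 TPM in wild-type cells against 32.0, 32.7 and 31.2 TPM in knockout cells at day 0, followed by 12.6, 13.5 and 11.4 TPM and 42.8, 39.2 and 33.5 TPM at day 1. At day 3 the genotypes overlapped, at 2.11, 2.19 and 0.709 TPM and 2.01, 3.62 and 1.56 TPM (difference in response -1.68 ± 0.38, adjusted p = 0.019 from limma). The transcription factor gene *Atf5* was at 40.2 and 45.0 TPM and 107, 103 and 116 TPM at day 0 (difference -1.197 ± 0.12, adjusted p = 0.00011), and *Psph*, which encodes an enzyme of serine synthesis, at 26.4 and 22.7 TPM and 40.3, 41.5 and 43.3 TPM (difference -1.02 ± 0.14, adjusted p = 0.0014). For *Psph* the difference was -0.92, under the 2-fold limit, without wild-type replicate 2 at day 0. *Nupr1* was at 1.42 and 2.69 TPM and 7.67, 5.995 and 6.73 TPM at day 0 (difference -1.26 ± 0.34, adjusted p = 0.039), and neither it nor *Chac1* passed without wild-type replicate 1 at day 0, with a pseudocount of 0.1 or with voom. *Atf3* was higher in knockout cells at day 0, at 7.54, 5.44 and 5.14 TPM against 2.92 and 2.62 TPM, and lower at day 3, at 20.4, 17.3 and 22.8 TPM against 37.2, 37.2 and 40.4 TPM (difference -1.78 ± 0.22, adjusted p = 0.0005).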
